A study of Mus musculus with 12 samples.

Results

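The complement components followed here were 9 genes: C1qa, C1qb and C1s of the classical pathway, C4b, C3, Cfb, the receptors C3ar1 and C5ar1, and the regulator Cd55. They were taken by name from the array, on which they had 12 probes out of 45281. The normalized table held 10 of these probes, from 7 genes, among its 21004 probes. C3ar1 and C5ar1 were found only in the table of unnormalized signals. The normalized table listed C4b as C4, Cfb as H2-Bf and Cd55 as Daf1, and these were matched by probe identifier.

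RNA came from femoral head cartilage of the hips of C57BL6 mice aged 4 to 6 weeks, and was hybridised to 12 Illumina mouse BeadChip arrays. Each genotype, WT or Mapk9 KO, had 3 arrays of control and 3 of injured hips, which gave 4 groups. Mapk9 encodes the stress kinase JNK2, and how the KO allele was made is not given in the sources used here. The femoral epiphysis was torn off after death, and the tissue was either snap-frozen at once (control, 0 h) or kept for 4 h in serum-free culture (injured), so the response to injury and an effect of culture cannot be told apart. The methods pool hips of several animals for each replicate, and they do not describe the KO arrays.

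Complement is a cascade of plasma and tissue proteins. In the classical pathway C1q, a recognition protein built of A, B and C chains, activates the proteases C1r and C1s, which cleave C4 and C2, and the C3 convertase formed from them cleaves C3. In the alternative pathway C3 works with factor B, factor D and properdin, and the released C3a and C5a act on C3ar1 and C5ar1 on leukocytes, while Cd55 on the cell surface speeds the decay of the convertases. Tissue macrophages are a main source of C1q, whereas C3 is made by the liver and is induced in many cell types by inflammatory cytokines.

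The arrays detected between 16930 and 18969 probes each (detection p under 0.05, the share of negative control probes that were brighter), with median signals of 121 to 190. The cartilage genes Col2a1, Chad and Comp were detected on all arrays, with Comp, the lowest of them, averaging log2 13.02 in Mapk9 KO control hips. Other cartilage genes were dimmer, such as Col11a2 at 6.39 in WT control hips. Genes of other cell types were bright too. The median array mean in WT control hips was log2 10.91 for listed chondrocyte genes, 12.15 for neutrophil, 12.26 for erythroid and 11.35 for skeletal muscle genes. In KO control hips these medians were 10.79, 12.68, 12.49 and 12.92. The targeted gene was checked first. The brightest Mapk9 probe lay between log2 10.50 and 10.90 in WT control, 10.05 and 10.57 in WT injured, 9.14 and 9.28 in Mapk9 KO control, and 8.69 and 8.78 in Mapk9 KO injured hips. It was therefore lower in each KO array than in each WT array and was still detected in KO. The other Mapk9 probe of the normalized table was detected on 3 WT control, 1 WT injured and 0 KO arrays. Whether either lies within the deleted part is not known.

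The probes that carry the results are shown first, because each value below is the brightness of 1 or more 50-base probes rather than of a whole transcript. For C4b, capitals mark the 46 bases shared by 2 overlapping probes, and the third probe has no such overlap.
C1qa: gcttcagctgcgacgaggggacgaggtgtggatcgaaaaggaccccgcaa
C1qb: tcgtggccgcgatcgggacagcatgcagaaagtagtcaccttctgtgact
C3: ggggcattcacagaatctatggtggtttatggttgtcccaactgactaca
C4b, bright probe: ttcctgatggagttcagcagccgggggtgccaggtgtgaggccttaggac
C4b, dim probe 1: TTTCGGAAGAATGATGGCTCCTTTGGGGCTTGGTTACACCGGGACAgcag
C4b, dim probe 2: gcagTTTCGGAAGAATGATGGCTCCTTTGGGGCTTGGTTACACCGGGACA
No C4b probe shared a run of more than 5 bases with either probe of C4a, the near-identical copy annotated in RefSeq as a transcribed pseudogene. Whether the C4b probes also match other parts of the C4a transcript was not tested, so the C4b values are uncertain in that respect. The C1s probes overlapped by 44 bases, and C1s has the close copies C1s1 and C1s2 in RefSeq.

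Of the 12 probes, 5 were detected on all 12 arrays: C1qa, C1qb, C3, the bright C4b probe and Cd55. Another 5 were detected on 1 to 3 arrays, namely both C1s probes, both dim C4b probes and C5ar1. The probes of Cfb and C3ar1 were detected on 0 arrays. The 10 probes of the normalized table were therefore not all measurable, and the comparisons below turn on the 5 bright ones.

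C1qa and C1qb, which encode the A and B chains of C1q, were downregulated post injury in both genotypes, by 3.61-fold and 3.74-fold in WT hips and by 7-fold and 6.4-fold in Mapk9 KO hips, sizes that for C1qa depended on the normalization. They were the only members that passed the threshold used for calls, an adjusted p under 0.05 together with a fold change over 2. C3 was higher post injury in both genotypes but missed that threshold, and C4b and Cd55 showed no change that passed it.

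The normalized log2 values of C1qa were 8.96, 9.16 and 8.59 in WT control hips and 6.88, 6.86 and 7.42 in WT injured hips. In Mapk9 KO hips they were 8.89, 8.90 and 8.86 in control and 6.13, 6.08 and 6.02 in injured hips. Injured and control arrays did not overlap in either genotype, as was the case for 42.8% of the 13973 probes detected on all 12 arrays in WT and 52.6% in KO, and all 3 KO injured arrays lay below all 3 WT injured arrays. The log2 difference of C1qa, injured minus control, was -1.85 (SE 0.24, 95% interval -2.38 to -1.32, adjusted p = 0.000461, limma, n = 3 per group) in WT. In Mapk9 KO it was -2.81 (SE 0.16, interval -3.16 to -2.45, adjusted p = 5.26e-07, limma). With quantile normalization alone, without background correction, these differences were smaller, -1.24 in WT and -1.73 in KO, and both still passed. The KO injured arrays were close to background, with detection p-values of 0.0267 to 0.0331, so the probe had little room to go lower there. In bulk RNA such as this, fewer cells of a type and less RNA per cell cannot be told apart.

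C1qb fell in the same arrays. Its log2 values were 10.90, 10.34 and 10.04 in WT control and 8.08, 8.52 and 8.97 in WT injured hips. They were 10.47, 10.68 and 10.37 in KO control and 7.77, 8.04 and 7.67 in KO injured hips. Again no injured array overlapped with a control array, and every one of these values was detected at a p of 0. The log2 difference was -1.90 (SE 0.29, interval -2.55 to -1.26, adjusted p = 0.00119, limma) in WT and -2.68 (SE 0.18, interval -3.08 to -2.28, adjusted p = 1.59e-06, limma) in KO. By the methods' t-test in place of limma, C1qb in WT had an adjusted p of 0.0518 and no longer passed.

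**Figure D1:**
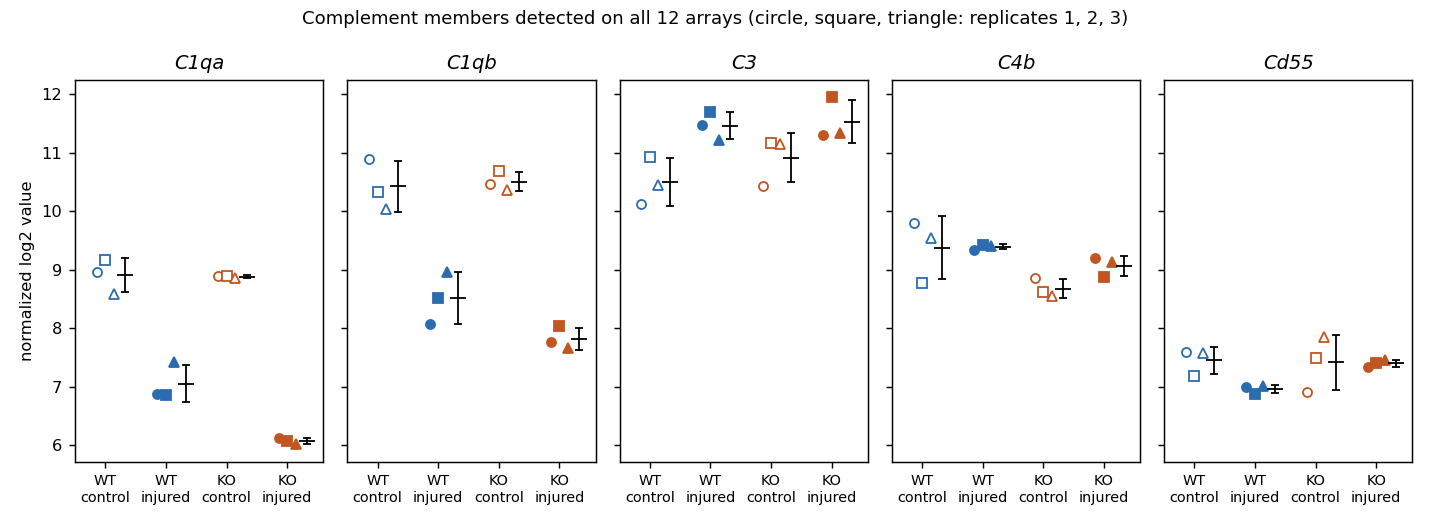
Normalized log2 values (vertical axis) of the 5 complement probes detected on all 12 arrays, by group, with circles, squares and triangles for replicates 1, 2 and 3, open symbols for control and filled ones for injured hips, and a bar for the mean with its SD. C1qa and C1qb lay lower in all injured arrays, C3 lay higher in each injured group than in its control group, and C4b and Cd55 overlapped between control and injured hips in 1 genotype each.

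C1s, the protease of the C1 complex, was near background. Its probe detected on 3 arrays ranged from log2 4.52 to 6.03 over all arrays, and its other probe, detected on 1 array, from 4.56 to 5.70. The log2 differences in WT were -0.38 (adjusted p = 0.446) and -0.70 (adjusted p = 0.0321, under the fold limit), and in KO -0.13 (adjusted p = 0.725) and -0.24 (adjusted p = 0.498, limma). No probe of C1s passed in either genotype.

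C4b supplies part of the classical C3 convertase. The bright probe read log2 9.80, 8.77 and 9.55 in WT control, 9.34, 9.42 and 9.41 in WT injured, 8.86, 8.61 and 8.55 in KO control, and 9.20, 8.88 and 9.13 in KO injured hips. WT control replicate 2 stood below the other WT arrays, and the WT groups overlapped, whereas in KO the injured arrays all lay above the control arrays. In KO the groups did not overlap for 52.6% of the 13973 probes detected on all 12 arrays. The log2 difference was 0.02 (SE 0.27, interval -0.58 to 0.61, adjusted p = 0.975, limma) in WT and 0.39 (SE 0.18, interval -0.0044 to 0.79, adjusted p = 0.111) in KO. Without WT control replicate 2 the WT difference turned to -0.29 (adjusted p = 0.368). The dim probes, both shown above, were detected on 1 KO array each and on 0 WT arrays. They gave -0.48 and -0.17 in WT and 0.68 and 0.44 in KO, and neither passed. A further probe, which the normalized table lists as C4 and the other table as LOC100045680, fell outside the naming rule and was counted with the other complement genes below. It was detected on all 12 arrays and gave -0.21 in WT (adjusted p = 0.555) and 0.10 in KO (adjusted p = 0.743).

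C3, the central component of the cascade, was read by a probe with signals of 1244 to 3206 over the 12 arrays. Its log2 values were 10.13, 10.93 and 10.45 in WT control and 11.48, 11.69 and 11.22 in WT injured hips. In KO they were 10.43, 11.17 and 11.15 in control and 11.30, 11.95 and 11.33 in injured hips. All injured arrays lay above all control arrays of the same genotype, and replicate 2 was the highest array in every group. Injured and control arrays did not overlap for 42.8% of the 13973 probes detected on all 12 arrays in WT and for 52.6% in KO. The log2 difference was 0.96 in WT (SE 0.25, interval 0.41 to 1.51, adjusted p = 0.0179, limma), a fold change of 1.95 that fell just short of the fold limit. It was 0.61 in KO (SE 0.25, interval 0.05 to 1.17, adjusted p = 0.0839). The WT result lay at the limit: it passed without WT control replicate 2 (1.18, adjusted p = 0.00416), without WT injured replicate 3 (1.08, adjusted p = 0.0293) and with array medians subtracted (1.01). It also lost the adjusted p with the methods' t-test (0.103) and without WT control replicate 1 (0.77, adjusted p = 0.0702), WT injured replicate 1 (0.95, adjusted p = 0.0535) or WT injured replicate 2 (0.85, adjusted p = 0.0758).

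Factor B, the protease precursor of the alternative pathway, was not measurable here. The Cfb probe read log2 3.22 to 5.08 with detection p-values of 0.183 to 0.796, and its differences of 0.13 in WT and -0.63 in KO did not pass and are of a probe below background in every group, so no fold is given.

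The receptors C3ar1 and C5ar1 were examined in the unnormalized signals, which were background-corrected and quantile normalized over all 45281 probes. By that processing 5.09% of all probes passed in WT and 7.84% in Mapk9 KO hips, in either direction, and 0 of these 2 member probes did. C3ar1 signals ranged from 98.9 to 162 with detection p-values of 0.155 to 0.869. C5ar1 signals were 142, 101 and 128 in WT control, 147, 105 and 132 in WT injured, 127, 100 and 118 in KO control and 192, 113 and 180 in KO injured hips. Only KO injured replicate 1 was detected, with a detection p-value of 0.0459, and replicate 3 lay just over the threshold at 0.0534. The log2 difference of C5ar1 was 0.12 in WT (adjusted p = 0.574) and 0.69 in KO (SE 0.22, adjusted p = 0.0877, limma).

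Cd55, the decay-accelerating factor, protects cells from their own complement. Its log2 values were 7.60, 7.19 and 7.57 in WT control, 6.99, 6.89 and 7.01 in WT injured, 6.92, 7.50 and 7.85 in KO control, and 7.34, 7.42 and 7.45 in KO injured hips. The WT groups lay apart, as they did for 42.8% of the 13973 probes detected on all 12 arrays. The KO control arrays spread over the whole range of the KO injured ones. The log2 difference was -0.49 (SE 0.20, interval -0.93 to -0.04, adjusted p = 0.104, limma) in WT and -0.02 (SE 0.23, interval -0.53 to 0.49, adjusted p = 0.959) in KO. Neither passed.

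**Figure D2:**
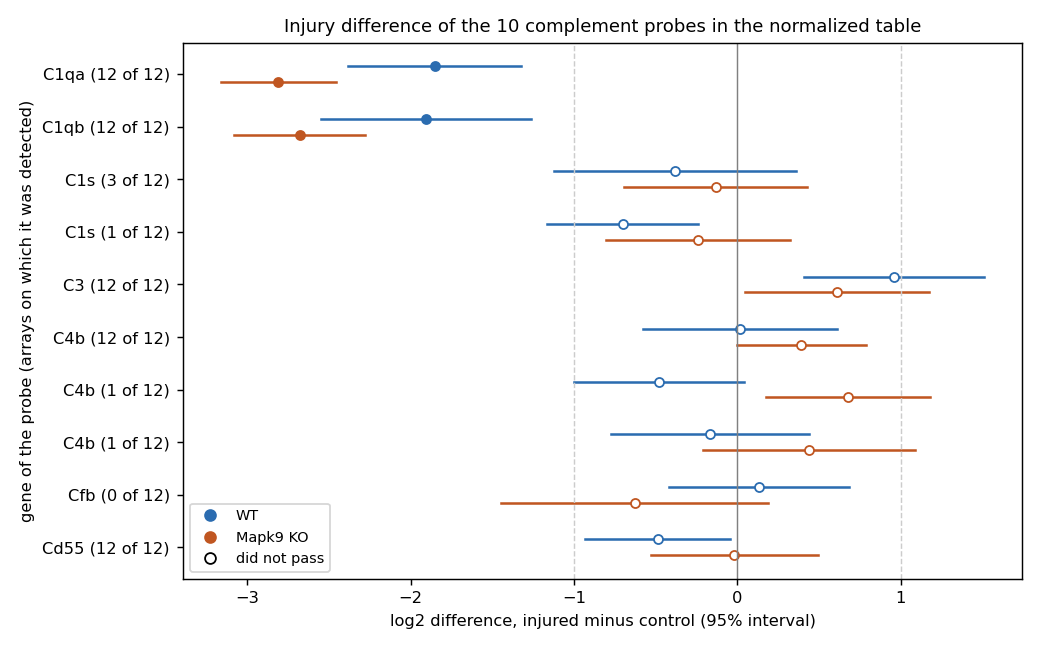
Log2 difference, injured minus control, of the 10 complement probes in the normalized table (horizontal axis) with its 95% interval, in WT and Mapk9 KO hips, each probe labelled with the number of arrays that detected it. Filled points passed the threshold and dashed lines mark the fold limit; C1qa and C1qb are the only filled probes, and C3 reaches 0.96 in WT.

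Counted over the 10 probes of the normalized table, 0 rose and 2 fell in WT, where 7.55% of all 21004 probes rose and 7.14% fell. In Mapk9 KO 0 rose and 2 fell, against 9.59% and 9.14% of all probes. At an unadjusted p under 0.05, 5 of the 10 differed in WT, where 3788 of all 21004 probes were higher and 3997 lower, and 4 differed in KO, where 4825 were higher and 5015 lower. The median log2 difference of the 10 probes was -0.43 in WT and -0.08 in KO, beside -0.02 for all probes in both. Over the 5 probes detected everywhere it was -0.49 and -0.02. Averaged over the genotypes, the same 2 probes fell and 0 rose, where 8.06% of all probes rose and 7.91% fell. The average log2 difference was -2.33 for C1qa (adjusted p = 1.33e-08) and -2.29 for C1qb (adjusted p = 1.58e-07). The average difference of C3 was 0.79 (adjusted p = 0.00332, limma), under the fold limit.

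Whether loss of Mapk9 altered complement expression was asked in control hips, in injured hips and as a difference between the injury effects. In control hips 0 of 10 member probes passed, where 0.119% of all probes did, and the adjusted p-values of the 5 bright probes ran from 0.712 to 0.994 (limma). The log2 difference of C1qa, KO minus WT, was -0.02 (interval -0.50 to 0.46). That of the bright C4b probe was -0.70 (SE 0.28, interval -1.31 to -0.09, adjusted p = 0.712), with the value of WT control replicate 2 among the KO values.

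In injured hips 0 of 10 passed, where 0.181% of all probes did, although 5 of the 10, and 2648 of all 21004, had an unadjusted p under 0.05. The 5 included the Cfb probe, undetected on every array, and a dim C4b probe. C1qa was -0.98 (SE 0.19, interval -1.40 to -0.55, adjusted p = 0.139) and C1qb -0.69 (SE 0.23, interval -1.21 to -0.18, adjusted p = 0.277). Cd55 was 0.44 (SE 0.15, interval 0.10 to 0.77, adjusted p = 0.295, limma). For 4 of the 5 bright probes, all but C3, the KO and WT injured arrays did not overlap, which held for 17.6% of the 13973 probes detected on all 12 arrays. The methods' t-test also gave 0 calls among the members in both genotype comparisons.

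The difference between the injury effects, KO minus WT, also passed for 0 of 10 probes, and 0% of all 21004 probes passed. At an unadjusted p under 0.05 it was 3 of the 10 and 2088 of all. C1qa gave -0.96 (SE 0.28, interval -1.55 to -0.37, adjusted p = 0.318), C1qb -0.77 (SE 0.35, interval -1.53 to -0.01, adjusted p = 0.494) and C3 -0.35 (SE 0.38, interval -1.16 to 0.46, adjusted p = 0.793, limma). The larger fall of the C1q genes in KO was thus not shown to differ from that in WT. The intervals do not show that the genotypes respond alike either. With the replicate number as a block this comparison gave 102 calls with a more positive and 10 with a more negative effect in KO over all probes, and the injured hips 156 calls higher and 32 lower in KO, against 38 in all without the block. The members still gave 0 calls.

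C1qa and C1qb share their place in the genome with C1qc, the gene of the C chain: in RefSeq (GRCm38.p6) the genes lie next to each other on chromosome 4 in the order C1qb, C1qc, C1qa. C1qc, a gene of the complement list and not itself a member, fell in step. Its log2 difference was -2.18 (SE 0.32, adjusted p = 0.00105) in WT and -2.62 (SE 0.19, adjusted p = 2.57e-06, limma) in KO. Over the 12 arrays, the deviations from the group means correlated at 0.659 between C1qa and C1qb, 0.847 between C1qb and C1qc and 0.505 between C1qa and C1qc. These points share the array, the RNA pool and its normalization. By the same measure C3 and C4b gave -0.796. Arrays with the same replicate number deviated together, and the deviations keep what they share. With the means of the replicate numbers also removed, a measure added after the data were seen, these 4 correlations were 0.66, 0.927, 0.526 and -0.605.

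The stretches before the start sites of C1qb and C1qc, the genes of this block with a RefSeq promoter entry, are printed because their probes moved together. Each is the 250 bases upstream of the RefSeq start, on the minus strand, with matches in capitals.
C1qb, chr4:136886201-136886450: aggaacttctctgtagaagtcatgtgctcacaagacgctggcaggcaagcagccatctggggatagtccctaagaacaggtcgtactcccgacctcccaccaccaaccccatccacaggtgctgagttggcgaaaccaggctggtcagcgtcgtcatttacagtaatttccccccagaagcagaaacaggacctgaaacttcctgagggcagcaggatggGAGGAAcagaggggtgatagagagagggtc
C1qc, chr4:136892915-136893164: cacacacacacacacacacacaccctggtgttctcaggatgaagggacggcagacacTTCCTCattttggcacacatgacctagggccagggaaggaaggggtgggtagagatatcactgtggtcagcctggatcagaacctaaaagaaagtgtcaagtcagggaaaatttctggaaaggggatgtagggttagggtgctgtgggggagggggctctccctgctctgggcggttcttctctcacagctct
They were searched on both strands for TGANTCA (the AP-1 motif), TTGCNNCAA (C/EBP), TTCNNNGAA (the GAS element) and GAGGAA (PU.1). C1qb held GAGGAA once, its first base 30 bases before the start, and C1qc held it once, on the other strand, 193 bases before the start, and none of the other motifs matched in either. Of the 32851 promoters of this length, 23.3% hold GAGGAA, 6.75% TGANTCA, 1.74% TTGCNNCAA and 7.02% TTCNNNGAA. The windows of C3, C1s, C5ar1 and Cd55 held none of these motifs, and that of C3ar1 held TGANTCA once, 22 bases before the start. A match is a description of letters only.

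The rest of the complement system was read from lists of 45 other genes on the array, of which 27 were in the normalized table. In WT 2 rose, 10 fell and 15 did not pass, and in Mapk9 KO 1 rose, 11 fell and 15 did not pass. Of all probes, 7.55% rose and 7.14% fell in WT, and 9.59% rose and 9.14% fell in KO. The 10 lower genes in WT became 4 with the methods' t-test, which lost C1qc (adjusted p = 0.0555), C2 (0.0559), Cfd (0.0702), Serping1 (0.0821), Cd59b (0.0518) and Csmd1 (0.114), and 6 with quantile normalization alone, which lost C6, Cd59b, Csmd1 and Vsig4. The median log2 difference of the 27 was -0.22 in WT and -0.23 in KO, beside -0.02 for all probes in both.

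Among the classical and lectin pathway genes, 1 of 7 rose and 3 fell in WT, and 1 rose and 4 fell in KO. The shares of all probes were 7.55% higher and 7.14% lower in WT, and 9.59% higher and 9.14% lower in KO. C2, the partner of C4 in the convertase, fell in both, with log2 differences of -1.65 in WT (adjusted p = 0.00192) and -2.35 in KO (adjusted p = 4.63e-06). The ficolins, recognition proteins of the lectin pathway, went in opposite directions. Fcna, a macrophage ficolin in the mouse, fell, with log2 differences of -1.87 in WT and -3.54 in KO, whereas Fcnb, which is made by bone marrow myeloid cells, rose by 2.33 (adjusted p = 0.0003) and 1.78 (adjusted p = 2.57e-05, limma), and both of its probes rose. The size of the Fcna fall in KO is uncertain. Its KO injured arrays had detection p-values of 0.00641 to 0.0449, and its smallest KO difference over the alternative ways of processing was -2.43. The lectin pathway protease Masp1 fell in KO, from a probe detected on 1 of 3 control arrays and on none of the injured ones, so no fold is given, and the call was lost without KO control replicate 3 or KO injured replicate 1. The C4a probes gave 0.34 and 0.31 in WT and 0.53 and 0.50 in KO, under the fold limit.

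Of the alternative pathway genes, Cfd, the factor D that activates the convertase and a major product of fat cells, fell in both genotypes. The difference was -3.65 (SE 0.54, adjusted p = 0.00107) in WT and -6.21 (SE 0.51, adjusted p = 5.71e-06, limma) in KO on the log2 scale. In KO injured hips the probe was detected on 2 of 3 arrays, with replicate 1 at a detection p-value of 0.186, and the KO difference was -4.90 with quantile normalization alone, so its size is uncertain. Properdin, Cfp, gave 0.35 and 0.08 and did not pass. Of 5 terminal pathway genes in the table C6 alone fell, where 7.14% of all probes fell in WT and 9.14% in KO. The C6 probe had a log2 difference of -1.35 in WT. That probe, the brighter of 2, was undetected on all KO injured arrays and was at least 3.4-fold lower there by the deposited values. Its smallest KO log2 difference over the alternative ways of processing was -0.94, under the fold limit. The second probe was undetected on all injured arrays and at least 1.63-fold lower in WT and 1.21-fold lower in KO.

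Of 7 regulators 4 fell in each genotype and 0 rose, where 7.14% of all probes fell and 7.55% rose in WT, and 9.14% fell and 9.59% rose in KO. Serping1, the C1 inhibitor, fell, with log2 differences of -1.32 in WT (adjusted p = 0.00622) and -1.78 in KO (adjusted p = 1.62e-05). Cd59a and Cd59b, which block the membrane attack complex, gave -1.59 and -1.12 in WT and -1.83 and -1.44 in KO, and all 4 values passed. Without WT control replicate 2 the WT value of Cd59b was -0.96 and missed the fold limit. Csmd1, a membrane regulator, passed as lower in WT from a probe detected on 1 of 3 injured arrays, so no size is drawn from its -1.13, and without WT injured replicate 1 its value was -0.84 and missed that limit. In KO it was undetected on all injured arrays and gave -0.97 (adjusted p = 0.00684), which did not pass. Vtn, vitronectin, fell in KO, where its probe was undetected on all injured arrays and at least 2.36-fold lower by the deposited values. Its smallest KO log2 difference over the alternative ways of processing was -0.96, under the fold limit. Clu, bright in every group, gave 0.62 and 0.34 and did not pass.

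Of 6 receptor genes, 1 rose and 1 fell in WT and 1 fell in KO. Of all probes, 7.55% rose and 7.14% fell in WT, and 9.14% fell in KO. With so few genes these counts are not read as a result about the receptors. Vsig4, a complement receptor of tissue macrophages, was undetected on all injured arrays. By the deposited values it was at least 2.23-fold lower in WT and 2.52-fold lower in KO. Over the alternative ways of processing its smallest log2 difference was -0.66 in WT and -0.89 in KO, under the fold limit. Cd93 rose by 1.01 in WT, just over the fold limit, and its second probe gave 0.65. It failed to pass without WT control replicate 2 (0.99), without WT control replicate 3 (0.93) and without WT injured replicate 2 (0.91). Itgam, the alpha chain of complement receptor 3, gave 0.82 in both genotypes (adjusted p = 0.0199 and 0.00882), under the fold limit.

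**Figure D3:**
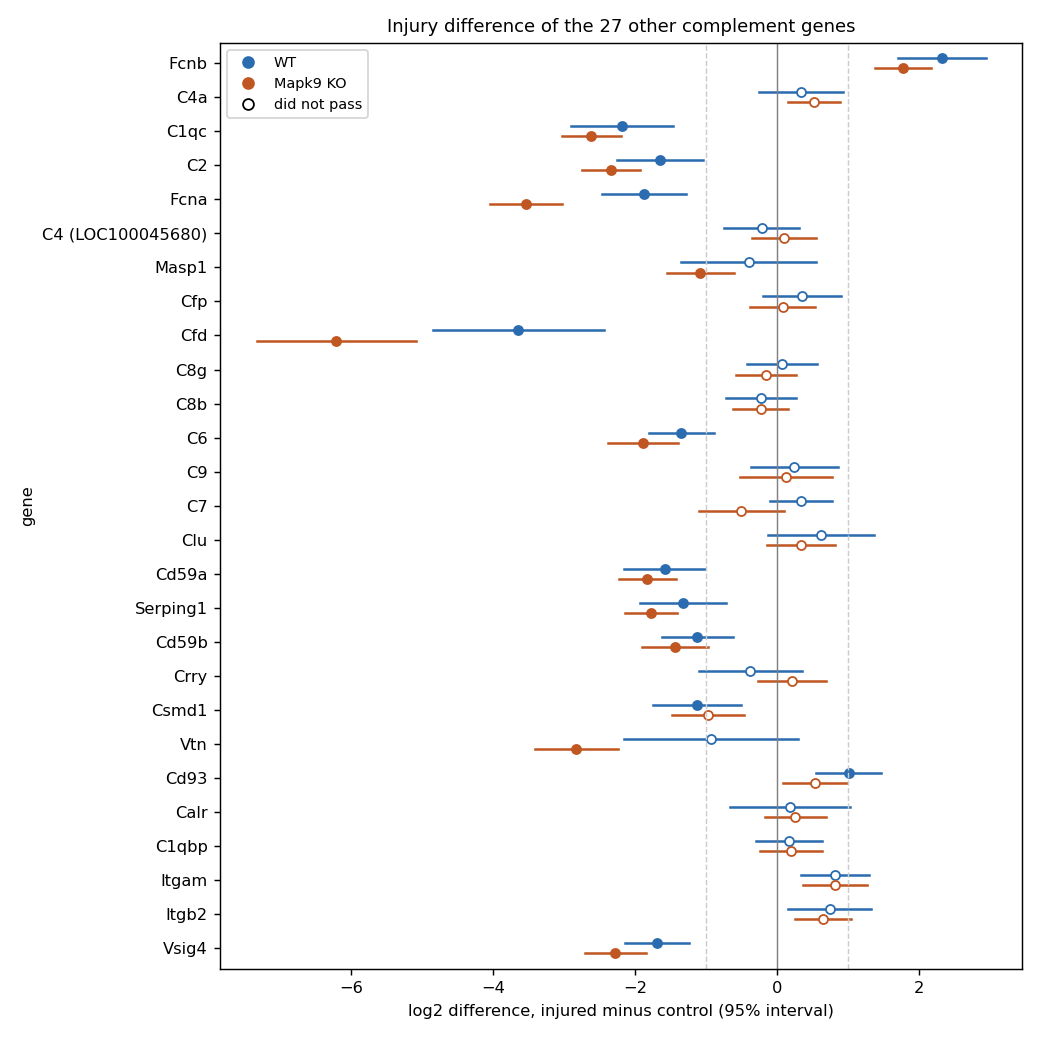
Log2 difference, injured minus control, with its 95% interval for the 27 other complement genes of the normalized table, in the order of classical and lectin pathway, alternative pathway, terminal pathway, regulators and receptors. Filled points passed; Cfd lies farthest to the left at -6.21 in KO, and Fcnb is the only gene filled on the right in both genotypes.

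Macrophages are a main tissue source of C1q. Of 15 macrophage genes in the normalized table, 2 rose, 9 fell and 4 did not pass in each genotype. Of all probes, 7.55% rose and 7.14% fell in WT, and 9.59% rose and 9.14% fell in KO. The 9 lower genes became 2 in WT and 5 in KO with quantile normalization alone, and 3 in WT with the methods' t-test. The list had a median log2 difference of -1.31 in WT and -1.40 in KO, beside -0.02 for all probes in both. Their mean log2 level per array was 8.73 to 8.98 in WT control and 8.19 to 8.53 in WT injured hips, and 8.82 to 9.07 in KO control and 8.05 to 8.34 in KO injured hips, so that control and injured arrays did not overlap. Of the 4 genes of the list with the highest means over all 12 arrays, injured ones included, Laptm5 gave 0.12 and -0.11, Lyz2 0.95 and 0.96, under the fold limit, Tyrobp rose by 1.43 and 1.02, and Cd14, the co-receptor for bacterial lipopolysaccharide, rose by 5.01 (adjusted p = 1.13e-06) and 5.33 (adjusted p = 6.22e-08, limma). Cd68 gave -0.78 in WT (adjusted p = 0.101) and -1.40 in KO, where it passed (adjusted p = 0.000137, limma). The Tyrobp value in KO missed the fold limit without KO control replicate 1 (0.97), KO injured replicate 2 (0.87) or KO injured replicate 3 (0.99). Other genes of the list, chosen after their values were seen, were among the 9 that fell: Csf1r gave -1.87 in WT and -2.21 in KO, Mrc1 gave -1.44 and -1.54, and Cd163 was undetected on all injured arrays and at least 1.24-fold and 1.25-fold lower. Fcgr1, counted among the 9, was undetected on 5 of the 6 control arrays and all injured arrays. The part of these markers in the fall of C1q was not tested.

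**Figure D4:**
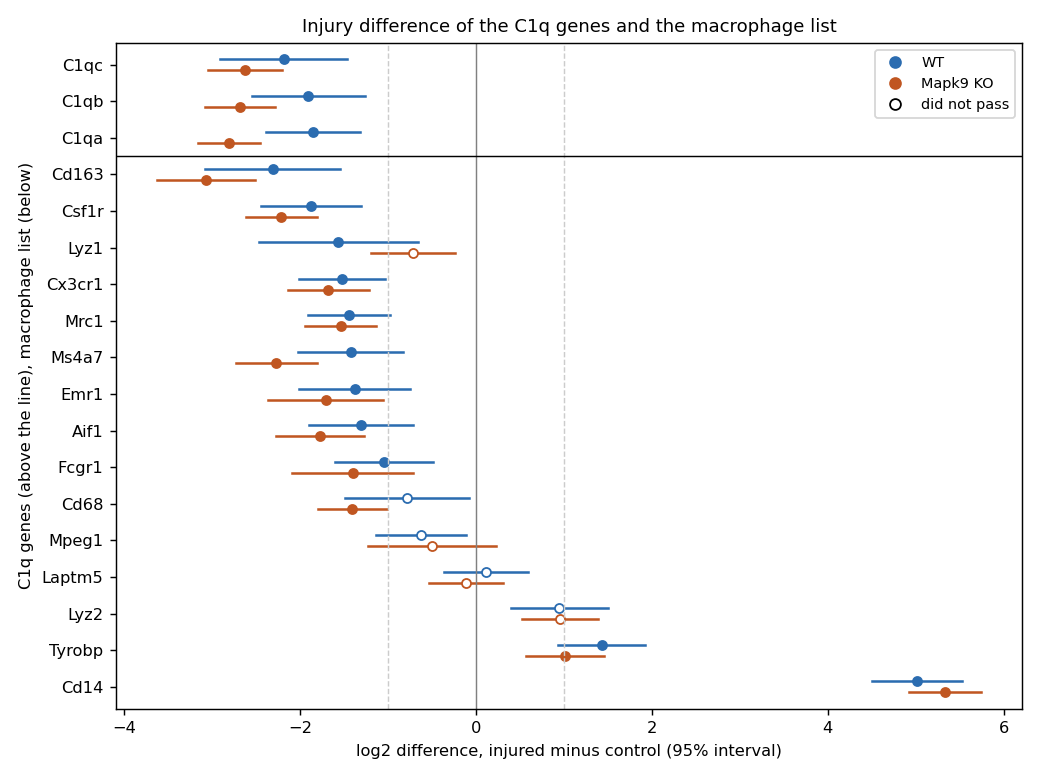
Log2 difference, injured minus control, with its 95% interval for the 3 C1q genes (above the line) and the 15 macrophage genes of the normalized table (below it), in WT and Mapk9 KO hips, ordered by the WT value. The C1q genes lie among the macrophage genes that fell, such as Csf1r, while Cd14 stands at 5.01 and 5.33.

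Genes of other cell type lists also passed, and their part in the results was not tested. In WT and KO, where 7.14% and 9.14% of all probes fell and 7.55% and 9.59% rose, skeletal muscle genes fell in 12 and 14 of 14, fibroblast and synovial lining genes fell in 4 and 6 of 9, and adipocyte genes fell in 1 and 3 of 5. The adipocyte gene that fell in WT was Cidec, detected on 1 control array and 0 injured arrays, so that count rests on a probe near background. Chondrocyte genes rose in 7 of 11 and neutrophil genes in 5 of 10, in both genotypes. Of 9 endothelial genes 1 rose in WT and 0 in KO and of 8 erythroid genes 1 fell in each, counts near those shares. Of 9 B and T cell genes 2 rose in WT, while in KO 1 rose and 1 fell. Among these lists muscle differed most between the control groups, with a mean log2 level of 10.8 to 12.6 in WT control and 12.7 to 12.9 in KO control hips. Adipoq, the fat cell hormone, gave -0.99 in WT and -1.74 in KO, where it passed, beside the fall of Cfd.

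Genes most like C3 and C1qb were sought among 10706 genes detected on all 12 arrays, by Pearson's r of the deviations from the group means, which leaves out the injury and genotype differences but keeps what arrays of one replicate number share. For C3 these were Kifc1 (0.966), Dazap2 (0.947), Prg3 (0.947), Slpi (0.939) and Rb1 (0.936). Of these Prg3, a granule protein of eosinophils, rose by 3.02 in WT and by 2.27 in KO, and Slpi, a secreted inhibitor of leukocyte proteases, rose by 2.02 and 1.74. For C1qb they were Hyal1 (0.953), Kif3a (0.917), Tmem86a (0.91), Myo18a (0.896) and Mlh3 (0.885). Hyal1, a hyaluronidase, gave -1.30 and -1.27, and Tmem86a -1.74 and -2.51, and all 4 values passed. All these r are over 12 arrays with 4 group means removed, and the highest of 10706 are high by selection. With the means of the replicate numbers also removed they ran from 0.818 to 0.927 for the 5 genes like C3 and from 0.909 to 0.959 for those like C1qb.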

How the data were processed

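The authors deposited signal intensities of 45281 probes with a detection p-value each, and normalized log2 values of 21004 probes (46.4%), which they had background-corrected with negative control probes and normalized with vsn. The filter behind the 21004 is not given in the sources used here. Arrays were assigned to groups by their labels, and no columns were left unmapped. Each comparison was fitted with limma 3.58.1 in R 4.3.3 on the 6 arrays compared, or on all 12 for the interaction and the average, with Benjamini-Hochberg adjustment over all 21004 probes and calls at a fold over 2 and an adjusted p under 0.05 (the interaction by adjusted p alone). C3ar1 and C5ar1 were fitted after neqc (offset 16) over all probes. For a probe that no array of a group detected, the fold is a lower bound. It is taken against the higher of the array's lowest detected value and the probe's own value. The bound holds for the deposited values, and other processing can give a smaller difference. A gene with several probes in a list was represented by its brightest probe. The members and gene lists were chosen with earlier results of these data known, and genes were named by a rule: all members, the passing complement genes, the brightest cell type markers and the 5 genes most like C3 and C1qb. Outside it, C4a, the further C4 probe, C7, Cfp, Clu, Itgam, Cd68, Csf1r, Mrc1, Cd163 and Fcgr1 were named after their values were seen. Alternatives included neqc, plain quantile normalization, median centring, the t-test that the methods name for the metabolite data (here the methods' t-test), the label code number as a block and each array left out. Arrays with the same replicate number deviated together in all 18 pairs of arrays from different groups (r 0.153 to 0.39, against -0.289 to 0.0825 for 36 other pairs), so the number was used as a block in an alternative. Deviations within a group sum to 0, so positive same-number pairs push the other pairs below 0. The other pairs are therefore not an independent comparison. The number of arrays limits the precision, and p-values measure the spread between pools. No 2 arrays held identical values (correlations 0.868 to 0.986).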

Additional observations from a re-analysis of the deposited data

Results flagged for a closer look

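The probe of the terminal pathway gene C7 was detected on 1 of the 12 arrays, a KO control array, so these values are mostly of a probe below background and no direction is drawn from them. Its injured array was higher than the control array of the same replicate number in every WT pair and lower in every Mapk9 KO pair. Its mean log2 value was 5.14 in WT control and 5.48 in WT injured hips, and 5.88 in KO control and 5.37 in KO injured hips. The difference between the injury effects was -0.84 on the log2 scale (SE 0.34, 95% interval -1.58 to -0.10), and it did not pass the test (adjusted p = 0.436, limma).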

How the results depend on the processing

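The fall of C1qa passed under all 17 alternatives in each genotype (-2.04 to -1.24 in WT, -2.87 to -1.73 in KO), and that of C1qb under all 17 in KO (-2.78 to -2.23) and 16 in WT (-2.13 to -1.66), the exception being the methods' t-test, which left 1 member probe lower. The count of member probes higher in WT was 1 with array medians subtracted and without the fold limit, and 0 to 1 when single arrays were left out. In WT that probe was C3. Without the fold limit the count was also 1 in the average, again C3, and 1 in KO, where it was a dim C4b probe detected on 1 array (adjusted p = 0.0367). Without WT injured replicate 1, 1 member probe, that of the undetected Cfb, was lower in KO injured hips, and the range over the arrays left out was 0 to 1. Differences near 0 changed sign. C4b in WT became -0.036 with neqc, -0.040 with quantile normalization alone, and -0.29 to 0.23 with arrays left out. Cd55 in KO ran from -0.27 to 0.19 with arrays left out. Between control groups, C1qa became 0.0088 with medians subtracted, 0.059 with the label code number as a block, and -0.18 to 0.11 with arrays left out, Cd55 became 0.0042 with quantile normalization alone and ran from -0.25 to 0.22, and C1qb ran from -0.11 to 0.32. Between injured groups C3 ran from -0.15 to 0.18. The cause of these changes was not tested.

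Other complement genes higher in WT numbered 1 with neqc and with quantile normalization alone, and 1 to 2 with arrays left out, and in KO 4 without the fold limit. Those lower in WT numbered 6 with quantile normalization alone and 4 with the methods' t-test, and in KO 7 with quantile normalization alone. Macrophage genes lower in WT numbered 2 with quantile normalization alone and 3 with the methods' t-test, and in KO 5 with quantile normalization alone. The cause of these lower counts was not tested. Macrophage genes higher in KO numbered 1 with neqc and with quantile normalization alone, and 1 to 3 with arrays left out. With the replicate block C1qa in WT was -1.85 (adjusted p = 0.00265) and C3 in KO 0.61 (adjusted p = 0.0307, under the fold limit), and the block changed no call of a member. Dim probes limit what can be said of C1s, Cfb, C3ar1 and C5ar1.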
